A study of Rattus norvegicus with 24 samples.

Results

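Interferon-stimulated genes are the set of genes that cells switch on when they sense an interferon, and 47 of them were followed here in rat (Rattus norvegicus) brain. They were taken by gene name from the table of read counts. Of the 47, 46 had a row among 29539 genes, 40 passed the filter on low counts among 14421 genes tested, and Ifit1 was not analysed here. Poly(A)-selected RNA was sequenced from 24 samples in 3 groups of 8. SKF samples came from rats with a stab wound of the forebrain that received SKF-81297, an agonist of D1-like dopamine receptors, by injection into the peritoneum on 3 days, with 1 dose a day and the first 1 h after the wound. Vehicle samples carry no label beyond that word and are taken here as wounded brain without the agonist, and normal control samples as brain without either. SKF and vehicle are together called the wounded groups. The labels leave out strain, sex, age, brain region, when the tissue was taken and what the vehicle contained. Nothing in them ties each sample to a separate animal, so p-values measure the spread between these samples, part of which may be technical.

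Type I interferons (alpha, beta and related forms) act through the receptor chains Ifnar1 and Ifnar2 and the kinases Jak1 and Tyk2. The kinases phosphorylate Stat2, which acts with Irf9 at the interferon-stimulated response element of target promoters. Interferon gamma acts through Ifngr1, Ifngr2, Jak1 and Jak2, and its signal reaches promoters at the gamma-activated site. The products of the target genes block viral entry, degrade or sequester viral RNA, modify proteins, recruit T cells and restrain the signal itself. In brain, microglia, astrocytes, endothelium and infiltrating leukocytes can all carry such a response. The roles given below are those known in human or mouse cells.

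Promoter sequences show where the sites of both pathways lie in members that rose after the wound and in members that did not pass the test (adjusted p under 0.05 in edgeR, vehicle against normal control). They are 300-base windows (250 bases before to 50 after the start) from RefSeq, build GRCr8, which is not the build of the counts, and each is given on the strand of its gene. Capitals mark each match to the core of the response element, which is TTTC and TTTC with 2 bases of any kind between them, or to TTCNNNGAA, the gamma-activated site, on either strand, with overlapping matches allowed. Ifit3 (chr1:241527076-241527375, plus strand), Gbp2 (chr2:234005477-234005776, plus strand) and Ifitm3 (chr1:205541709-205542008, minus strand) rose and hold the response element, which in Ifitm3 stands beside a gamma-activated site. Irf1 (chr10:38417685-38417984, plus strand) rose and holds a gamma-activated site alone. Irf7 (chr1:205799974-205800273, minus strand) and Rsad2 (chr6:48788071-48788370, minus strand) hold the response element and did not pass the test.
Ifit3: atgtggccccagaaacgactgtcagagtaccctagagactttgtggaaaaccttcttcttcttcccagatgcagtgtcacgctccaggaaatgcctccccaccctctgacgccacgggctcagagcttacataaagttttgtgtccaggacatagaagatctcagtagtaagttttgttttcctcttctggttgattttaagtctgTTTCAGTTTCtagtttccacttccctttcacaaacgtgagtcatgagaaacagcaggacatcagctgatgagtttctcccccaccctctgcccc
Gbp2: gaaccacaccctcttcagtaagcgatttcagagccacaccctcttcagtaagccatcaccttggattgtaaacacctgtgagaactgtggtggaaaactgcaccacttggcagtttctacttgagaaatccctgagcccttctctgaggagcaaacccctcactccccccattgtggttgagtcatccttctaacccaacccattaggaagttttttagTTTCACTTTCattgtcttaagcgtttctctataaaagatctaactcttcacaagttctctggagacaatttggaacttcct
Ifitm3: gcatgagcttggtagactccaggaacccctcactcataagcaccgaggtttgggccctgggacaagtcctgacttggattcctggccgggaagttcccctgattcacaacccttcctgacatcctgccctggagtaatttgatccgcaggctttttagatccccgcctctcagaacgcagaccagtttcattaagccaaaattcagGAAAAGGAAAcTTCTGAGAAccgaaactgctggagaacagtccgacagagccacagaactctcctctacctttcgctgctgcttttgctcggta
Irf1: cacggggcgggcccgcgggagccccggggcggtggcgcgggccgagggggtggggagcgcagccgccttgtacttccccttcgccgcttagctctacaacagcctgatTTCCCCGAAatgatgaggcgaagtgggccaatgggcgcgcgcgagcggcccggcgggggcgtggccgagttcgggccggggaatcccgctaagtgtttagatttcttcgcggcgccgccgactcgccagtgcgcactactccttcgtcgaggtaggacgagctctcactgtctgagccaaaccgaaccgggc
Irf7: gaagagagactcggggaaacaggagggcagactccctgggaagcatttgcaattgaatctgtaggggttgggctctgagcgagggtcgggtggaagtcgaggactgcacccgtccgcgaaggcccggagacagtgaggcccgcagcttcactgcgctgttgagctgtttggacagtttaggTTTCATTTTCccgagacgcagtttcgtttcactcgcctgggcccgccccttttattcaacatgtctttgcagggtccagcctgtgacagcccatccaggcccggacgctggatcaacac
Rsad2: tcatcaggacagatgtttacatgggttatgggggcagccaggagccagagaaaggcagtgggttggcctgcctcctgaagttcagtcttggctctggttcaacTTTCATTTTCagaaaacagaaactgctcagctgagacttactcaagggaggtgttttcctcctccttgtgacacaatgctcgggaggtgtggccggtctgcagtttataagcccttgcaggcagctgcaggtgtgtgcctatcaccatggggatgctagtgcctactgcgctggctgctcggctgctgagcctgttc

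Of the 46 members with a row, 37 matched a single RefSeq promoter. The response element core was found in 24 of these 37 (64.9%), against 3.92% of 33469 promoters. TTCNNNGAA was found in 12 (32.4%), against 8.87% of all promoters, and both in 7 (18.9%), against 0.514%. The response element was found among members of every kind of change: 16 of 25 members that were higher in vehicle than in normal control held it, and so did 5 of 6 that did not pass and 1 of 2 that were lower. Irf1, Irf8 and Irf9 held the gamma-activated site without the response element. A match is a run of letters in this window and no more.

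**Figure D1:**
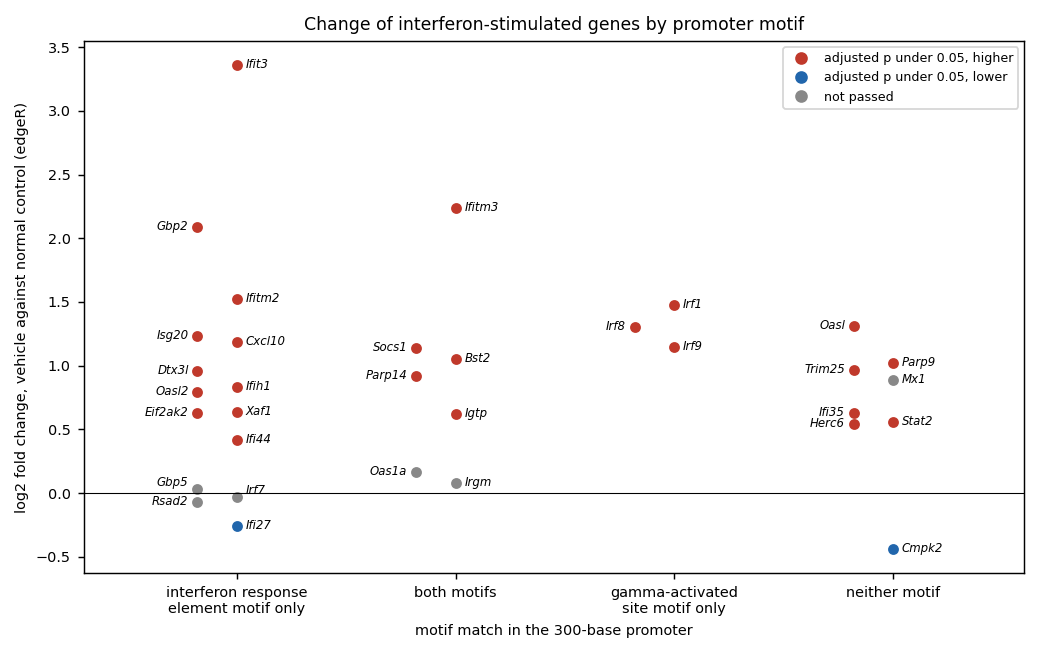
The vertical axis is the log2 fold change of each tested member with a single promoter, vehicle against normal control, and the 4 columns are the motif matches in its promoter. Ifit3 at 3.36 and Irf7 at -0.03 both stand in the column of the response element alone, and the column with neither motif runs from Cmpk2 at -0.44 to Oasl at 1.31.

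Total counts per library ran from 8911339 to 12383368. Summed TPM (a level corrected for gene length, with every library brought to an equal sum) of 5 neuronal markers ran from 2960 to 3730 in SKF, 2180 to 3970 in vehicle and 3250 to 4340 in normal control, so the samples read as brain by those markers. A pair of normal control libraries stood apart: number 4 held skeletal muscle markers at 2550 TPM summed, against a group median of 13.0, and number 6 was alone on the second principal component. Without both, 26 members instead of 27 were higher in vehicle than in normal control and 4 were lower.

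Members were on balance higher after the wound. In vehicle against normal control, 27 of 40 tested members (67.5%) were higher at an adjusted p under 0.05 in edgeR's quasi-likelihood test, against 26.9% of all genes tested. Another 4 (10.0%) were lower, against 27.1% of all genes, and 9 did not pass. At least 2-fold higher were 15 members, against 7.69% of all genes. The vehicle and normal control libraries did not overlap in log2 CPM (counts scaled by library size) for 17 members that were higher, against 11.6% of all genes, and for 1 that was lower, against 7.50%. The median log2 fold change was 0.81 over the members and -0.00972 over all genes tested. Single members ran from -0.459 (Mx2) to 3.48 (Ifitm1).

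SKF and vehicle were not told apart by the test for any member. In SKF against vehicle, 0 of 40 members passed the adjusted threshold, and 0 of all 14421 genes did (0%). At an unadjusted p under 0.05 stood 6 members, all with lower values in SKF, against 2.82% of all genes in that direction. Of all genes tested, 715 stood at an unadjusted p under 0.05 in edgeR. DESeq2 called 6 genes of the whole table and 0 members. The plot of fold changes by role sets this comparison beside the wound comparison.

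**Figure D2:**
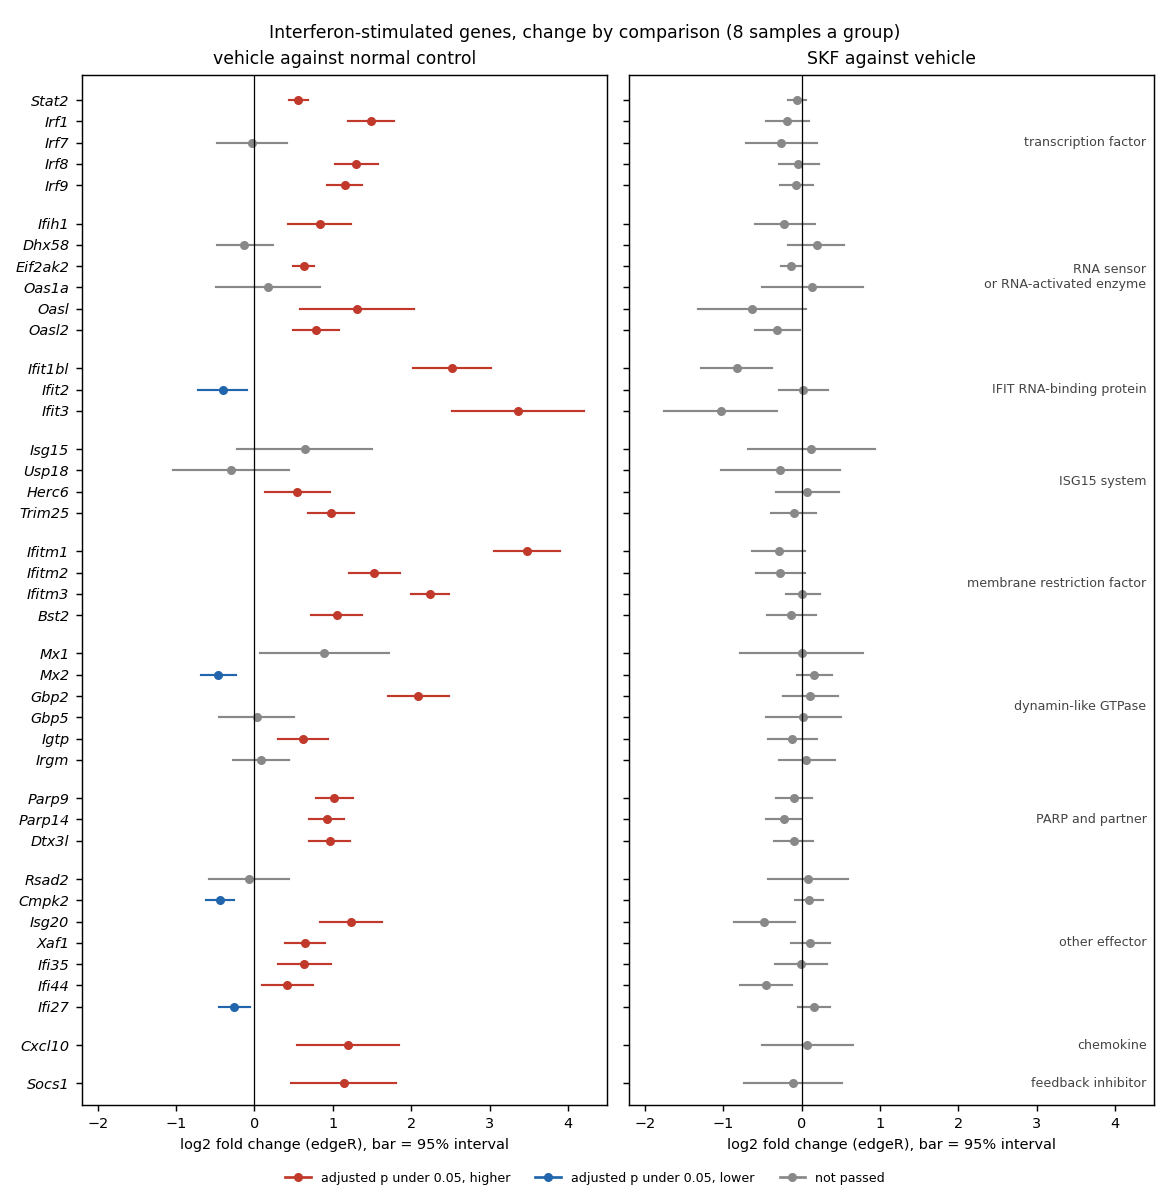
Points are log2 fold changes of the 40 tested members, grouped by role, in vehicle against normal control (left) and SKF against vehicle (right), and bars are 95% intervals over 8 samples a group. On the left most points lie right of 0, up to Ifitm1 at 3.48, and on the right every point is grey and lies between -1.03 (Ifit3) and 0.19 (Dhx58).

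Markers of several cell types moved with the members. Summed TPM of 8 monocyte and macrophage markers ran from 202 to 399 in SKF, 275 to 444 in vehicle and 30.8 to 42.9 in normal control, and all 8 passed as higher in vehicle than in normal control. Summed TPM of 9 neutrophil markers ran from 81.7 to 139 in SKF, 143 to 376 in vehicle and 6.24 to 12.5 in normal control, with 6 of 6 tested markers higher in vehicle than in normal control and Ltf at 0 in every library. The neutrophil sums of SKF and vehicle did not overlap, though 0 of the 6 markers passed in SKF against vehicle. T and NK cell markers (8 of 9 in the table) ran from 3.77 to 11.2 TPM in SKF, 5.41 to 11.3 in vehicle and 0.819 to 3.01 in normal control. Dendritic cell markers (7 of 7) ran from 18.3 to 28.5 TPM in SKF, 22.2 to 31.4 in vehicle and 9.96 to 19.6 in normal control, where Siglech was at 0, and of the 4 tested Clec10a and Ccr7 were higher in vehicle than in normal control while Flt3 and Zbtb46 did not pass, and Zbtb46 was lower in SKF than in normal control. Microglial markers (7 of 8) ran from 189 to 254 TPM in SKF, 201 to 275 in vehicle and 200 to 240 in normal control. Astrocyte markers (6 of 6) summed to 3380 to 4020 TPM in SKF, 2860 to 4320 in vehicle and 1520 to 1860 in normal control, with Gfap higher in vehicle than in normal control and the other 5 lower. Endothelial markers (6 of 7) summed to 120 to 147 TPM in SKF, 131 to 175 in vehicle and 101 to 136 in normal control, with 3 higher in vehicle than in normal control, 1 lower and 2 not passed. The part of these cells in the members' changes was not tested. In bulk tissue a change in the number of cells of a type and a change in RNA per cell cannot be told apart.

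The transcription factors that carry the interferon signal rose in 4 of 5 cases after the wound. Counts by role, here and below, stand beside 26.9% of all genes higher and 27.1% lower in vehicle against normal control. No test over a role was made. Here and below, 3 values in a row are the lowest, the median and the highest TPM of 8 samples. Irf1, an early factor of the gamma response, had 9.42, 11.6 and 15.1 TPM in SKF, 9.43, 14.2 and 17.1 TPM in vehicle, and 2.88, 4.39 and 5.99 TPM in normal control. Irf8, a factor of microglia and other myeloid cells, had 6.41, 9.03 and 12.3 TPM in SKF, 8.19, 9.2 and 11.7 TPM in vehicle, and 2.45, 3.58 and 4.9 TPM in normal control. Irf9, the DNA-binding part of the type I complex, had 22.9, 27.0 and 36.8 TPM in SKF, 20.4, 31.1 and 34.6 TPM in vehicle, and 9.02, 11.6 and 15.1 TPM in normal control. Each of these 3 factors had both wounded groups wholly above normal control, with SKF and vehicle overlapping. The log2 fold changes of vehicle against normal control were 1.48 ± 0.14 (SE; adjusted p = 1.49e-09 in edgeR) for Irf1, 1.30 ± 0.13 (3.85e-09) for Irf8 and 1.15 ± 0.11 (8.83e-10) for Irf9.

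Stat2, the partner of Irf9, changed less and with the smallest spread of any member in both wounded groups. It had 30.0, 34.1 and 38.4 TPM in SKF, 34.1, 36.1 and 37.6 TPM in vehicle, and 18.3, 22.2 and 26.2 TPM in normal control. Its log2 fold change was 0.56 ± 0.06 (adjusted p = 9.15e-09 in edgeR), and no vehicle sample was as low as any normal control sample. Irf7, which drives the later interferon alpha genes, did not follow. It had 3.34, 4.54 and 9.7 TPM in SKF, 4.9, 6.93 and 7.9 TPM in vehicle, and 3.51, 6.32 and 10.1 TPM in normal control. The 3 groups of Irf7 overlapped throughout, with a log2 fold change of -0.03 ± 0.22 in vehicle against normal control (adjusted p = 0.907) and a 95% interval of -0.48 to 0.41.

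The membrane restriction factors, which act on viruses as they enter or leave the cell, held the largest rise, and 4 of 4 passed. Ifitm1 had 16.6, 24.3 and 28.4 TPM in SKF, 20.3, 29.2 and 42.3 TPM in vehicle, and 1.0, 2.04 and 3.93 TPM in normal control. Its counts per library were 48 to 92 in SKF, 56 to 108 in vehicle and only 3 to 13 in normal control. Ifitm3 had 143, 170 and 195 TPM in SKF, 124, 176 and 226 TPM in vehicle, and 24.2, 33.2 and 40.9 TPM in normal control. The RNA of both, which encode fusion-blocking proteins of the endosome and cell surface, was higher in every wounded sample than in any normal control sample. Ifitm2 had 56.6, 64.1 and 96.3 TPM in SKF, 72.3, 77.2 and 122 TPM in vehicle, and 15.9, 28.9 and 41.6 TPM in normal control. Bst2, the tether that holds budding virus at the membrane, had 28.7, 50.8 and 66.4 TPM in SKF, 39.3, 56.7 and 66.8 TPM in vehicle, and 17.2, 24.1 and 33.1 TPM in normal control. For Bst2 the lowest SKF sample fell within the normal control range, while the vehicle samples did not. In vehicle against normal control Ifitm1 was 11.1-fold higher (log2 3.48 ± 0.21, adjusted p = 8.75e-14 in edgeR) and Ifitm3 was 4.73-fold higher (2.24 ± 0.12, 6.03e-15). Ifitm2 was 2.88-fold higher (1.52 ± 0.16, 7.42e-09) and Bst2 was 2.07-fold higher (1.05 ± 0.16, 2.85e-06). Reads of close relatives such as the Ifitm genes may be split or shared by the counting, as may those of the Oas, Ifit, Mx, Gbp and Irgm families, so their single values are less certain.

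**Figure D3:**
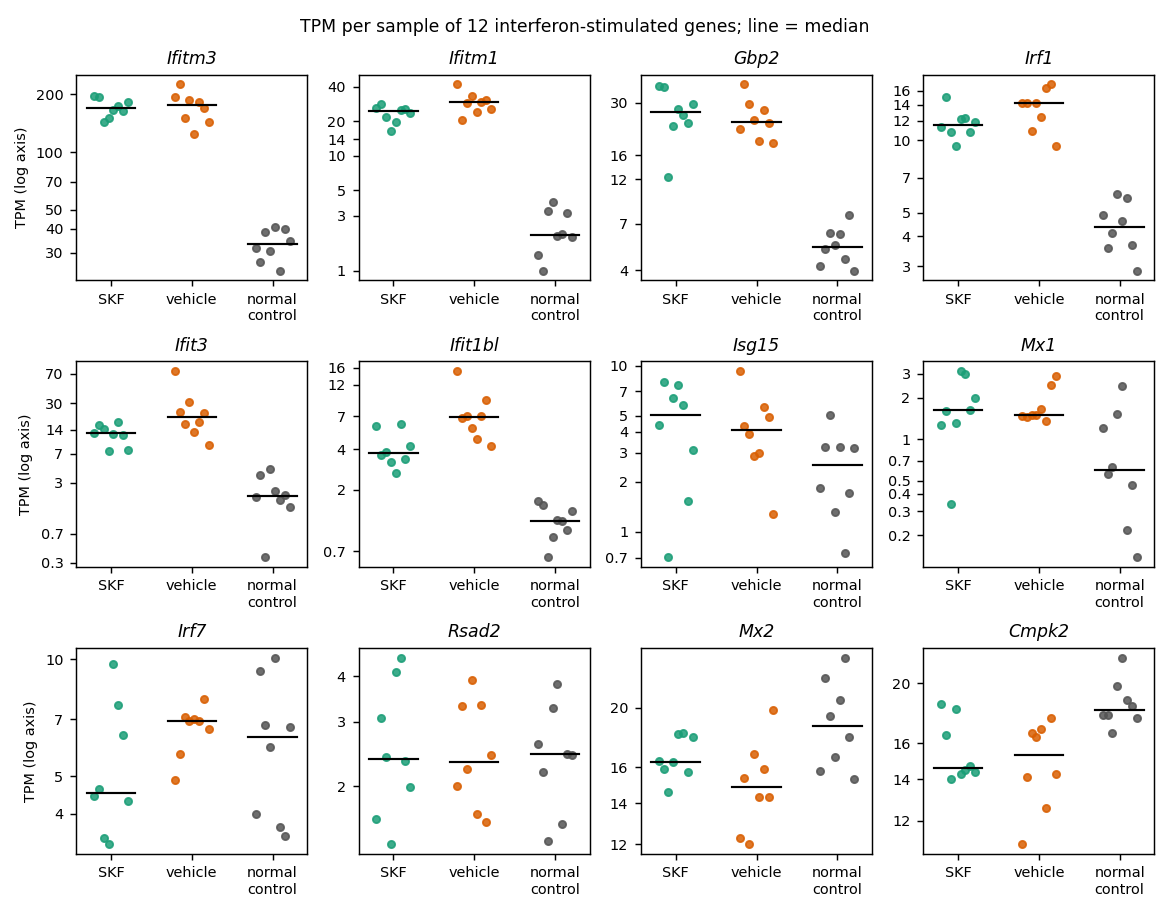
Each panel gives the TPM of a member in every sample on a log axis, with the group median as a line. The 8 members in the first 2 rows had higher medians in both wounded groups than in normal control, without overlap for Ifitm3, Ifitm1, Gbp2, Irf1, Ifit3 and Ifit1bl, and the 4 in the last row did not.

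The genes of the IFIT proteins, which bind viral RNA, moved in opposite directions within the family. Ifit3 had 7.44, 12.5 and 17.6 TPM in SKF, 8.92, 20.2 and 76.1 TPM in vehicle, and 0.351, 2.07 and 4.47 TPM in normal control. Ifit1bl, a rat relative of Ifit1, had 2.68, 3.73 and 6.09 TPM in SKF, 4.22, 6.89 and 15.2 TPM in vehicle, and 0.63, 1.18 and 1.64 TPM in normal control. Both were above the whole normal control range in every wounded sample, and vehicle 1 was the highest sample for both. Ifit3 was 10.3-fold higher in vehicle than in normal control (log2 3.36 ± 0.41, adjusted p = 2.53e-07 in edgeR) and Ifit1bl was 5.74-fold higher (2.52 ± 0.24, 1.58e-09). Ifit2 fell in the same comparison. It had 3.75, 5.4 and 8.32 TPM in SKF, 3.91, 5.99 and 7.31 TPM in vehicle, and 5.34, 6.96 and 8.5 TPM in normal control. The groups of Ifit2 overlapped, its log2 fold change was -0.40 ± 0.15 (adjusted p = 0.0279), and it no longer passed when any of 6 libraries was left out, with adjusted p up to 0.0642.

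Among the RNA sensors and RNA-activated enzymes 4 of 6 tested members rose. Oasl had 0.894, 1.23 and 1.94 TPM in SKF, 1.07, 2.02 and 4.12 TPM in vehicle, and 0.123, 0.952 and 1.45 TPM in normal control. Oasl2 had 4.45, 6.54 and 9.56 TPM in SKF, 5.36, 8.54 and 10.2 TPM in vehicle, and 3.86, 4.37 and 6.16 TPM in normal control. These relatives of the oligoadenylate synthetases overlapped with normal control in at least 1 vehicle sample each. The log2 fold changes of vehicle against normal control were 1.31 ± 0.36 for Oasl (adjusted p = 0.0029 in edgeR) and 0.79 ± 0.14 for Oasl2 (4.13e-05). Ifih1, the sensor of long double-stranded RNA, rose by 0.83 ± 0.19 (0.000697), and Eif2ak2, the kinase that stops translation, by 0.63 ± 0.07 (6.69e-09). Dhx58 at -0.13 and Oas1a at 0.17 did not pass. Zbp1, Oas2 and Oas3 were below the filter, with medians of 0.24, 0.154 and 0.256 TPM in SKF, 0.056, 0.199 and 0.508 TPM in vehicle, and 0, 0.155 and 0.0873 TPM in normal control. With no filter Oas3, an oligoadenylate synthetase, passed at a log2 fold change of 2.24 ± 0.50 (adjusted p = 0.000479), on 54 counts in SKF, 74 in vehicle and 15 in normal control over 8 libraries each.

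Isg15, a ubiquitin-like protein attached to other proteins during the response, varied more than it differed. It had 0.701, 5.08 and 8.01 TPM in SKF, 1.28, 4.09 and 9.33 TPM in vehicle, and 0.749, 2.52 and 5.04 TPM in normal control, on 2 to 24 counts per library. The 3 groups overlapped, and the log2 fold change of vehicle against normal control was 0.64 ± 0.42 (adjusted p = 0.203 in edgeR). Usp18, which removes Isg15 and blocks the type I receptor, was at -0.30 ± 0.36 and did not pass either. The ligases of the system rose: Trim25 by 0.97 ± 0.14 (adjusted p = 2.15e-06) and Herc6 by 0.54 ± 0.20 (0.0251). Herc6 lost its call without normal control 5, vehicle 4 or vehicle 6.

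Of the 6 dynamin-like GTPases tested, 2 rose, 1 fell and 3 did not pass. These counts lie near the shares over all genes, 26.9% higher and 27.1% lower, and are not read as a result about the family. Gbp2, a guanylate-binding protein that attacks the vacuoles of pathogens, had 12.3, 26.9 and 36.6 TPM in SKF, 18.6, 23.9 and 37.7 TPM in vehicle, and 3.99, 5.3 and 7.8 TPM in normal control. It was 4.25-fold higher in vehicle than in normal control (log2 2.09 ± 0.19, adjusted p = 8.29e-10 in edgeR), with all wounded samples above the normal control range. Igtp, an immunity-related GTPase, rose by 0.62 ± 0.16 (0.00134), while Gbp5 at 0.03 and Irgm at 0.08 did not pass. Gbp4 was below the filter, at 48 counts in the 8 vehicle libraries and 56 in the 8 normal control libraries.

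The genes of the Mx proteins, which trap viral nucleocapsids, did not move together. Mx1 had 0.339, 1.63 and 3.15 TPM in SKF, 1.35, 1.5 and 2.9 TPM in vehicle, and 0.138, 0.593 and 2.44 TPM in normal control. Every vehicle sample lay above the normal control median, but 6 of 8 lay within the normal control range. The log2 fold change was 0.89 ± 0.40 (adjusted p = 0.0624 in edgeR), which became 1.27 (0.00798) without normal control 5, the highest of its group, and passed in DESeq2 at 0.0484. Mx2 had 14.6, 16.4 and 18.2 TPM in SKF, 12.0, 14.8 and 19.8 TPM in vehicle, and 15.3, 18.6 and 24.1 TPM in normal control. It fell by 0.46 ± 0.11 on the log2 scale in vehicle against normal control (adjusted p = 0.000715), with the groups overlapping.

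Parp9, Parp14 and Dtx3l, which add ADP-ribose or ubiquitin to proteins of the response, rose by similar amounts. Parp9 had 9.13, 10.8 and 14.8 TPM in SKF, 10.4, 12.0 and 13.9 TPM in vehicle, and 2.97, 5.23 and 7.52 TPM in normal control. Its wounded samples were all above the normal control range, and it was 2.03-fold higher in vehicle (log2 1.02 ± 0.12, adjusted p = 3.29e-08 in edgeR). Parp14 rose by 0.92 ± 0.11 (8.08e-08), and Dtx3l, the ubiquitin ligase that binds Parp9, by 0.96 ± 0.13 (3.56e-07).

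The remaining effectors went both ways, with 4 of 7 higher and 2 lower, beside 26.9% and 27.1% of all genes. Isg20, an RNA exonuclease, had 1.8, 3.29 and 5.32 TPM in SKF, 3.49, 5.14 and 6.03 TPM in vehicle, and 1.13, 1.97 and 2.65 TPM in normal control. Vehicle did not overlap with normal control for Isg20, and 7 of 8 SKF samples were above it. The log2 fold change of vehicle against normal control was 1.23 ± 0.20 (adjusted p = 6.52e-06 in edgeR). Ifi44 had 6.26, 6.81 and 12.0 TPM in SKF, 7.76, 10.2 and 14.1 TPM in vehicle, and 4.89, 6.95 and 10.1 TPM in normal control. Its groups overlapped, and its change of 0.42 ± 0.16 (0.0287) lost the call without any of 6 libraries, at up to 0.0747. Xaf1, a factor of cell death, rose by 0.64 ± 0.12 (7.09e-05) and Ifi35 by 0.63 ± 0.16 (0.00187).

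Rsad2 and Cmpk2, neighbouring genes in many mammals whose products make or feed an antiviral nucleotide, were not higher after the wound. Rsad2 had medians of 2.37 TPM in SKF, 2.34 TPM in vehicle and 2.44 TPM in normal control, and a log2 fold change of -0.07 ± 0.25 in vehicle against normal control (adjusted p = 0.833 in edgeR). Cmpk2 had 14.0, 14.6 and 18.5 TPM in SKF, 11.0, 15.4 and 17.6 TPM in vehicle, and 16.6, 18.1 and 22.0 TPM in normal control. It fell by 0.44 ± 0.09 on the log2 scale (0.000113) and was the member whose vehicle libraries all lay below normal control in log2 CPM, though 3 of 8 overlapped in TPM. Ifi27, a mitochondrial protein and the most abundant member in normal control, had 162, 204 and 269 TPM in SKF, 174, 183 and 195 TPM in vehicle, and 145, 201 and 273 TPM in normal control. The groups of Ifi27 overlapped throughout. Its fall by 0.26 ± 0.10 on the log2 scale (0.0259) did not pass without normal control 2 or 5. On log2 TPM, where the median of all genes was 0.109 or 0.121, against -0.00972 on counts, neither Ifi27 nor Ifit2 passed.

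Cxcl10, the chemokine that draws T cells through Cxcr3, had 1.41, 3.21 and 4.79 TPM in SKF, 1.96, 2.65 and 4.73 TPM in vehicle, and 0.394, 1.1 and 2.91 TPM in normal control. Normal control 5 reached into the wounded ranges and the other normal control samples stopped at 1.25 TPM. Cxcl10 was 2.28-fold higher in vehicle than in normal control (log2 1.19 ± 0.32, adjusted p = 0.00232 in edgeR). The other chemokines of that receptor were below the filter. Cxcl11 gave 43 counts in the 8 SKF libraries, 37 in vehicle and 3 in normal control, and passed with no filter at 3.23 ± 0.75 (0.000785). Cxcl9 gave 4 counts in SKF, 7 in vehicle and 11 in normal control.

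Socs1, which shuts off the Jak kinases, had 1.38, 4.66 and 6.0 TPM in SKF, 1.69, 4.64 and 7.84 TPM in vehicle, and 1.09, 1.42 and 3.8 TPM in normal control. The highest normal control sample of Socs1 was above the lowest of either wounded group. It was 2.2-fold higher in vehicle than in normal control (log2 1.14 ± 0.33, adjusted p = 0.00465 in edgeR).

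Members known chiefly from the gamma response are taken apart from the others here. Of the gamma list 6 of 8 tested were higher in vehicle than in normal control and 0 were lower, with a median log2 fold change of 1.16. That list held 11 members, and Gbp4, Cxcl9 and Cxcl11 were below the filter and are outside these counts. With no filter Gbp4 was at -0.22 ± 0.47, Cxcl9 at -0.60 ± 0.80 and Cxcl11 at 3.23 ± 0.75 in the same comparison. Of the other 32 tested members, 21 were higher and 4 were lower, with a median of 0.72. Over all genes 26.9% were higher and 27.1% were lower. No test of the difference between these lists was made.

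Of the members, Ifit1bl and Ifit3 had the largest differences between SKF and vehicle. Ifit1bl was below the vehicle median in 8 of 8 SKF samples and below the whole vehicle range in 6, at a log2 fold change of -0.83 ± 0.22 (unadjusted p = 0.000723, adjusted p = 0.656 in edgeR). Ifit3 was below the vehicle median in 8 of 8 SKF samples, at -1.03 ± 0.35 (unadjusted p = 0.00651, adjusted p = 0.867), which became -0.59 without vehicle 1. Without the same library Ifit1bl was at -0.62. Ifi44 (-0.45 ± 0.16, adjusted p = 0.889), Isg20 (-0.48 ± 0.19, 0.895), Oasl2 (-0.31 ± 0.14, 0.937) and Parp14 (-0.23 ± 0.11, 0.937) had smaller differences in the same direction. In each of these 6 members the SKF and vehicle samples overlapped. The summed neutrophil markers did not overlap (81.7 to 139 TPM in SKF, 143 to 376 TPM in vehicle), while the sums of the other cell type lists did. A sum over markers is not a like measure to a single gene, and 0 of 6 tested neutrophil markers passed. Their part in these differences was not tested.

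Over all 40 tested members the median log2 fold change of SKF against vehicle was -0.083, and over all genes it was 0.00121. Below 0 stood 24 members and above it 16, beside 49.5% of all genes below 0. For 36 of 40 the 95% interval stayed within a 2-fold difference either way, and the share of all genes with such an interval was not counted. The exceptions were Oasl, Ifit1bl, Ifit3 and Usp18, whose intervals reached below a 2-fold decrease, with lower bounds of -1.32, -1.28, -1.75 and -1.03 on the log2 scale. Ifitm3 at 0.01 ± 0.11, Gbp2 at 0.11 ± 0.17, Irf8 at -0.04 ± 0.13 and Cxcl10 at 0.07 ± 0.28 had small differences, and a p above the threshold does not show that the agonist left them alone.

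SKF against normal control uses the same normal control samples as the comparison of vehicle, so its values stand beside those and do not add to them. Higher in SKF were 25 of 40 members (62.5%), against 25.5% of all genes, and lower were 3, against 24.7%. At least 2-fold higher were 11, against 6.74% of all genes, and 14 members did not overlap in log2 CPM and were higher, against 11.5%. The median log2 fold change was 0.682 over the members and -0.00868 over all genes. Ifitm1 was at 3.18 ± 0.21 (adjusted p = 7.74e-13 in edgeR), Ifit3 at 2.33 ± 0.41 (4.76e-05), Ifitm3 at 2.25 ± 0.12 (7.1e-15), Gbp2 at 2.19 ± 0.19 (3.75e-10) and Ifit1bl at 1.69 ± 0.25 (2.1e-06). Ifit2 (-0.38 ± 0.15, 0.0405), Mx2 (-0.30 ± 0.11, 0.0227) and Cmpk2 (-0.35 ± 0.09, 0.00126) fell, and Ifit2 and Mx2 lost the call when single libraries were left out. Oasl (0.68 ± 0.37, 0.129), Ifi44 (-0.03 ± 0.16, 0.904) and Ifi27 (-0.10 ± 0.10, 0.411) did not pass here.

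**Figure D4:**
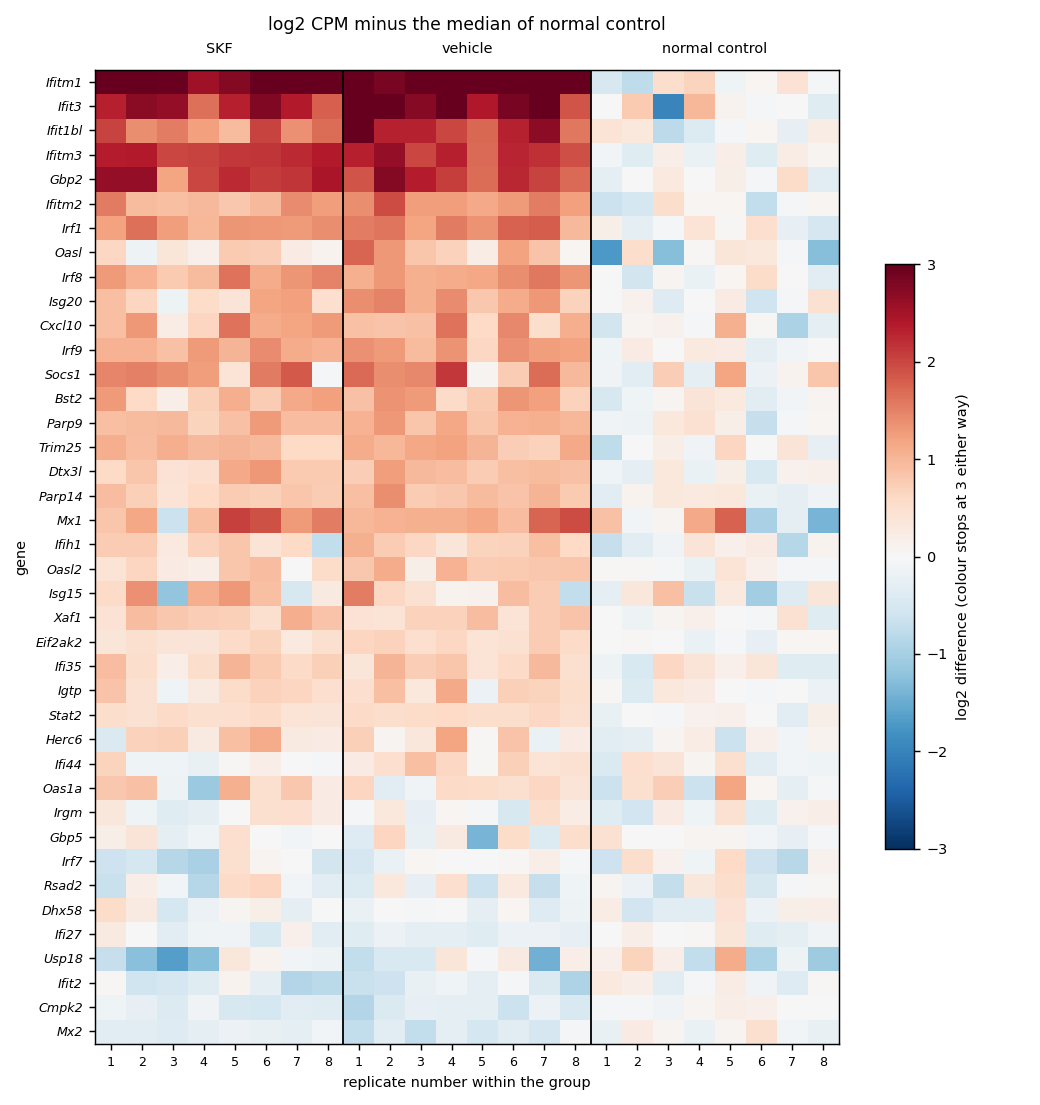
Rows are the 40 tested members in the order of their change in vehicle against normal control, columns are the 24 libraries by group and replicate number, and colour is log2 CPM minus the normal control median. The upper rows are red across both wounded groups, from Ifitm1 down, while SKF 3 is paler or blue in many rows and normal control 5 is redder than its group in rows such as Mx1, Oas1a and Usp18.

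Members varied more between samples of a group than genes in general did. The median standard deviation of log2 CPM was 0.309 in SKF, 0.29 in vehicle and 0.35 in normal control for the members, against 0.175, 0.202 and 0.193 for all genes. The most variable member was Isg15 in SKF (0.906), Ifit3 in vehicle (0.909) and Mx1 in normal control (1.07). Isg15 stood on 2 to 24 counts per SKF library and Mx1 on 2 to 35 per normal control library, while Ifit3 had 86 to 552 in vehicle. Low counts widen this measure by counting error, and members were not compared with genes of equal level. Single libraries carried part of the spread: SKF 3 was the lowest of its group for 18 of 40 members, vehicle 2 the highest for 12 and normal control 5 the highest for 14. Without SKF 3, Isg15 passed in SKF against normal control (0.92, adjusted p = 0.0479 in edgeR) and so did Mx1 (1.04, 0.0217).

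Interferons themselves were not detected or barely so. Ifnb1 and Ifng had 0 counts in all 24 libraries, as did Ifnl1 and Ifnl3. In a single library a count of 0 allows up to 3 counts, or 0.242 to 0.337 CPM at these depths, for counting error alone. For all 24 libraries at 0 the bound on the mean level is lower, and it was not computed. Ifna1 had 3 counts over the 8 SKF libraries, 2 over vehicle and 0 over normal control. Ifna4 had 8 counts over SKF, 3 over vehicle and 1 over normal control. The list of other genes of the pathway held 79 genes, of which 64 had a row and 53 were tested, with 33 higher and 4 lower in vehicle than in normal control and a median log2 fold change of 0.435. Over all genes tested 26.9% were higher and 27.1% were lower, with a median of -0.00972. In SKF against vehicle 0 of 53 passed. In SKF against normal control 31 were higher and 4 were lower, against 25.5% and 24.7% of all genes.

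Receptor chains rose modestly, with 4 of 5 tested higher in vehicle than in normal control, beside 26.9% of all genes. Ifnar2 had 14.6, 16.2 and 19.2 TPM in SKF, 15.5, 18.2 and 23.0 TPM in vehicle, and 8.9, 11.2 and 11.7 TPM in normal control, with both wounded groups wholly above normal control. Its log2 fold change in vehicle against normal control was 0.62 ± 0.07 (adjusted p = 2.5e-08 in edgeR). Ifnlr1, a chain of the lambda receptor, rose by 1.01 ± 0.17 (1.19e-05), Ifngr1 by 0.38 ± 0.07 (6.09e-05) and Ifngr2 by 0.40 ± 0.06 (3.41e-06). Ifnar1 at 0.11 ± 0.05 did not pass (0.0682).

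Among the signal carriers Stat3, which serves interleukin-6 type cytokines as well, rose by 1.89 ± 0.10 in vehicle against normal control (adjusted p = 7.08e-15 in edgeR), Jak2 by 0.62 ± 0.09 (2.78e-06) and Tyk2 by 0.45 ± 0.07 (2.33e-06), and 4 of 4 tested kinases and STATs were higher. Among genes of sensing and induction 4 of 11 were higher and 1 was lower in vehicle than in normal control, beside 26.9% and 27.1% of all genes, and in SKF against normal control 2 of 11 were higher and 1 was lower. Cgas, the sensor of cytosolic DNA, rose by 2.88 ± 0.48 (1.07e-05), Myd88, the adaptor of Toll-like receptors, by 1.83 ± 0.13 (1.7e-12) and the kinase Ikbke by 0.71 ± 0.13 (3.8e-05), which did not pass in SKF against normal control (0.27 ± 0.13, 0.0888). These sensors and carriers were at levels from a median of 1.47 TPM (Cgas) to 135 TPM (Stat3) in vehicle. In normal control Cgas was near the floor, at a median of 0.148 TPM. It had 14 counts there over the 8 libraries, with 2 libraries at 0, so the size of its rise is uncertain.

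Restraining genes were higher in 6 of 8 cases and lower in 2 in vehicle against normal control. The shares over all genes, for these and for the other interferon-stimulated genes below, were 26.9% and 27.1%. Socs3, an inhibitor of cytokine receptors and best known as a target of Stat3, had 65.3, 78.1 and 93.6 TPM in SKF, 53.1, 95.2 and 147 TPM in vehicle, and 0.567, 1.38 and 2.07 TPM in normal control. It was 66.7-fold higher in vehicle than in normal control (log2 6.06 ± 0.23, adjusted p = 3.1e-16 in edgeR), with no overlap. The phosphatases Ptpn6, common to leukocytes, and Ptpn2 rose by 1.76 ± 0.11 (5.63e-13) and 0.81 ± 0.11 (4.73e-07). Of 25 other interferon-stimulated genes tested, 15 were higher and 1, Lgals9, was lower (-0.67 ± 0.15, 0.000477). Ch25h, which makes an antiviral oxysterol, rose by 3.89 ± 0.25 (7.13e-13), Cd274, the ligand of the T cell checkpoint PD-1, by 2.06 ± 0.25 (9.88e-08) and Slfn2, a gene of T cells and monocytes, by 1.77 ± 0.14 (1.58e-11).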

How the data were processed

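RNA was sequenced from 24 rat brain samples (poly(A) selection, directional kit, per the labels), grouped by title. The authors deposited whole-number read counts per gene and TPM values for the same genes, with build mRatBN7.2 per the submitters' processing notes. Which programs aligned and counted the reads, and whether strand was used, is not given in the sources used here. Totals ran from 8911339 to 12383368 counts, at a biological coefficient of variation of 16.2%.

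The test on counts was that of edgeR 4.0.16 under R 4.3.3 (TMM, filterByExpr, robust quasi-likelihood F test, 1 fit of 24 libraries, 21 residual degrees of freedom), with Benjamini-Hochberg adjustment over 14421 genes and a threshold of 0.05. The procedure was tested on simulated data in which only a small part of the genes changed. That run does not show how it behaves where as many genes change as after the wound. Levels are the deposited TPM. Alternatives were DESeq2 1.42.0, RLE size factors, other filters, voom with sample weights and log2 TPM (limma 3.58.1; TPM of at least 0.5 in 8 libraries, pseudocounts 1 and 0.1), only the groups compared, a replicate block, and libraries left out. Figures used Matplotlib 3.10.9.

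Members, roles, pathway genes and markers were chosen with earlier results of these data known. Members got full values where they passed with a change of at least 2-fold in vehicle against normal control, fell there, had 1 of the 5 smallest p in SKF against vehicle, or were Isg15, Mx1, Irf7, Stat2, Cxcl10 or Socs1. Pathway genes were the 3 largest passing changes of each role, the interferon receptors, Ifnb1 and Ifng. Others named were chosen after their values were seen. Promoters came from a RefSeq table (build GRCr8) by symbol. Ifit1bl, with more than 1 promoter there, was left out of motif counts. Replicate numbers are shared by the groups without a stated pairing. Same-numbered samples correlated by -0.241 to 0.0783 in their deviations, so they were not paired.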

Additional observations from a re-analysis of the deposited data

Results flagged for a closer look

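In 9 of 120 groups (40 members in 3 groups of 8) 1 sample stood apart, with a gap to its nearest neighbour above 0.526 of the group's range in log2 CPM. Chance alone would flag about 1 in 20 groups. SKF 3 was low for Gbp2 (0.555; 12.3 TPM against 22.8 to 36.6 in the other SKF samples) and for Mx1 (0.545; 0.339 TPM against 1.27 to 3.15). SKF 8 was low for Ifih1 (0.661; 1.02 TPM against 2.21 to 3.45). SKF 1 was high for Ifi44 (0.545; 12.0 TPM against 6.26 to 8.84).

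Vehicle 2 was high for Parp14 (0.61; 8.67 TPM against 5.73 to 6.83 in the other vehicle samples) and for Ifitm2 (0.528; 122 TPM against 72.3 to 92.8). Vehicle 3 was low for Oasl2 (0.614; 5.36 TPM against 8.25 to 10.2). Normal control 3 was low for Ifit3 (0.544; 0.351 TPM against 1.5 to 4.47), and normal control 1 was high for Gbp5 (0.539; 2.71 TPM against 1.63 to 2.15).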

How the results depend on the processing

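Members higher in vehicle than in normal control numbered 25 to 29 under all alternatives, and those higher in SKF than in normal control 25 to 28. In SKF against vehicle 0 members and 0 pathway genes passed under any alternative. No called member changed direction. On log2 TPM, with either pseudocount, 2 members were lower in vehicle and 1 in SKF than in normal control, and 1 and 2 pathway genes were lower in these comparisons. On that scale the median of the 15280 genes tested was 0.109 or 0.121 in vehicle against normal control, against -0.00972 on counts, and the cause was not tested further. Leaving out single libraries gave 2 to 4 members lower in vehicle than in normal control (2 without normal control 2 or normal control 5) and 1 to 3 lower in SKF than in normal control (1 without normal control 2). With the replicate number as a block 26 members were higher and 4 lower in vehicle than in normal control, 0 differed between SKF and vehicle, and 25 were higher and 3 lower in SKF than in normal control. The numbers do not pair the samples, and Ifi44 was the 1 call lost under the block. At these depths members with a few counts per library (Isg15, Oasl, Cxcl10, Mx1) have wide intervals, and members below the filter were not tested.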

Other observations

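In 4 members the promoter held 1 match to each motif, and in 4 of 4 the matches started 11 bases apart, against 6 of 154 promoters of the whole RefSeq table with 1 match to each. This spacing was noticed after the matches were seen, and the 4 members were not chosen for it. The distance of 11 was read off these 4, so the share beside it is no test of the spacing. Starts were compared in either order and the motifs differ in length, so the gap in Ifitm3 is not that of Igtp, Irgm and Parp14. Bst2, Oas1a and Socs1 held both motifs with 2 matches to the response element, and in none did a pair start 11 bases apart. The whole table includes the members, so these 4 are among the 6. Igtp and Irgm share the run GAAACTGAAA, and whether the 4 promoters are independent of each other was not tested. Igtp (chr10:42874923-42874962, plus strand), Irgm (chr10:33742594-33742633, minus strand) and Parp14 (chr11:78408037-78408076, plus strand) held the gamma-activated site first and the response element in its reverse form after it. In Ifitm3 (chr1:205541773-205541812, minus strand) the reversed response element came first. The windows of 40 bases (GRCr8, strand of the gene) show both matches in capitals.
Ifitm3: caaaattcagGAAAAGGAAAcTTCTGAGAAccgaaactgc
Igtp: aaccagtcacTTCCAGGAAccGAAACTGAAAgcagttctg
Irgm: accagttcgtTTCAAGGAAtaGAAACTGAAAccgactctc
Parp14: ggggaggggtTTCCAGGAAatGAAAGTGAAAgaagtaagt

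After the wound these 4 genes differed in response. In vehicle against normal control the log2 fold change was 2.24 ± 0.12 for Ifitm3, 0.92 ± 0.11 for Parp14 and 0.62 ± 0.16 for Igtp, which passed in edgeR, and 0.08 ± 0.18 for Irgm, which did not (adjusted p = 0.717).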
